A study of Mus musculus with 17 samples.

Results

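Chemokines are small secreted proteins that bind G protein-coupled receptors and direct the movement of leukocytes. The CC chemokines carry 2 adjacent cysteines near the amino terminus, and the CXC chemokines have another residue between them. Myeloid cells of the marrow both make chemokines and respond to them: Ccl2 acts through Ccr2 in the release of monocytes from marrow, and Cxcl2 acts through Cxcr2 on neutrophils. A set of 10 chemokine genes was examined, out of 56305 gene rows in the deposited tables: Ccl2, Ccl3, Ccl4, Ccl5, Ccl6, Ccl9, Ccl17, Ccl25, Cxcl2 and Cxcl16. They were chosen by name, and Ccl3 and Ccl25 were selected on their small p-values between Mt1ko and control in these same samples, so their differences between the groups are given as descriptions, with no test.

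The samples were bulk total RNA of bone marrow from C57BL/6 mice with acute myeloid leukaemia. The control group had the genotype Dnmt3aR878H/+;Npm1cA/+, and the Mt1ko group had the same alleles with CRISPR-Cas9 knockdown of Mt1, which encodes metallothionein 1, a zinc-binding and copper-binding protein. Both leukaemia alleles were therefore present in every library. There were 8 control and 9 Mt1ko libraries, all labelled technical replicates, and the authors summed them into 6 samples: control 1-3, 7-9 and 14-15, and Mt1ko 4-6, 10-12 and 16-18, named by library number. Age, sex, the guide, its delivery and the number of mice were not given in the sources used here. Nothing says that the samples came from separate mice. The p-values below therefore set the difference between groups against the spread between samples, part of which may be technical.

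Library totals were 27124722 to 38645072 counts, and the summed samples held 64247249 to 106407001 counts. Mt1 was 384.2 ± 49.1 CPM (library-scaled counts, here also scaled by TMM, a trimmed mean of ratios that evens out composition) in control, falling to 106.8 ± 56.8 CPM in Mt1ko (SD, n = 3 each). The library labelled Mt1ko 6 held 326.2 CPM of Mt1, against 41.8 to 87.2 CPM in the other 8 Mt1ko libraries, so for Ccl3, Ccl25 and Cxcl2 values without it are also given. Mitochondrial ribosomal RNA took 26.0% of the counts of Mt1ko sample 10-12, against 4.93% to 8.43% of the other 5 samples, and its TMM factor of 0.85 (1.00 to 1.05 in the others) raised its CPM relative to plain shares of the total. Among 10 markers of monocytes and macrophages, 8 reached a control average of 10 CPM, whereas the 10 T and NK cell markers and the 8 of B cells each stayed below 1 CPM there. In bulk RNA, fewer cells of a type and less RNA per cell cannot be told apart.

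Ccl5, Ccl9, Ccl6, Ccl3 and Ccl4 lie in that order in 1 cluster on chromosome 11 (GRCm38), where 9245 bases part Ccl9 from Ccl6 and 13228 bases part Ccl3 from Ccl4. Ccl2 lies elsewhere on chromosome 11, 8258 bases before Ccl7, and Cxcl16 at another place on it. Cxcl2 is on chromosome 5, and Ccl17 and Ccl25 are on chromosome 8. Promoters, 250 bases before to 50 bases after each RefSeq start (GRCm38.p6), were found for 6 of the 10 genes, with 7 starts in all because Ccl25 has 2. Those of 4 genes are shown because their levels, below, behaved differently over the samples. The neighbours Ccl9 and Ccl6, whose ranges over the 6 samples were 1.91-fold and 9.57-fold, are at chr11:83578587-83578886 and chr11:83593038-83593337 (minus strand, printed 5′ to 3′ as transcribed).
Ccl9: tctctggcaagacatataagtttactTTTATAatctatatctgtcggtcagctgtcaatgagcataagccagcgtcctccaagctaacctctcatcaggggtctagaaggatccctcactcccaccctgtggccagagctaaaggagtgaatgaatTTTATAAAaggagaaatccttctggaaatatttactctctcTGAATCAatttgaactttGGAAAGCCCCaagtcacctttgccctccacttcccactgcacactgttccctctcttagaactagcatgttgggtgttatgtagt
Ccl6: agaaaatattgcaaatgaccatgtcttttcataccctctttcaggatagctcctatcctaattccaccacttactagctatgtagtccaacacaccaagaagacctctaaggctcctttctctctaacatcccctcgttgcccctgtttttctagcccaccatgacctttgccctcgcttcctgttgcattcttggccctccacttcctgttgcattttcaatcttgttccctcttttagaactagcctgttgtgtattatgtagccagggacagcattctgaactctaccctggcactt
Capitals mark matches on either strand to 4 motifs: the kB motif of NF-kB, TGANTCA of AP-1, TTGCNNAA of C/EBP, and TATAAA. The Ccl9 window held 1 kB match, 1 AP-1 match and TATAAA matches, a pair of which overlap each other, and the Ccl6 window held none of the 4. Over all 32851 RefSeq promoters of this length, 8.46% held a kB match, 7.81% an AP-1 match, 10.8% a C/EBP match and 13.6% a TATAAA match. A match in letters does not show binding.

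Ccl3, at chr11:83649329-83649628 (minus strand), is shown as 1 of the 2 genes selected on their p-values, and held none of the 4 motifs.
Ccl3: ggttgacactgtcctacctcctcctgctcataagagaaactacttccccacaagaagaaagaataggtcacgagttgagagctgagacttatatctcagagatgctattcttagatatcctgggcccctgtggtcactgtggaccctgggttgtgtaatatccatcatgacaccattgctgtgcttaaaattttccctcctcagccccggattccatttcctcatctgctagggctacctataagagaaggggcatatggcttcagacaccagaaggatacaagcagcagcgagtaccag
The 2 starts of Ccl25, at chr8:4324960-4325259 and chr8:4349338-4349637 (plus strand), differed in make-up: the upstream one was 74.0% G and C and held no match, and the downstream one was 51.7% G and C and held a TATAAA match 16 bases before the start.
Ccl25 upstream start: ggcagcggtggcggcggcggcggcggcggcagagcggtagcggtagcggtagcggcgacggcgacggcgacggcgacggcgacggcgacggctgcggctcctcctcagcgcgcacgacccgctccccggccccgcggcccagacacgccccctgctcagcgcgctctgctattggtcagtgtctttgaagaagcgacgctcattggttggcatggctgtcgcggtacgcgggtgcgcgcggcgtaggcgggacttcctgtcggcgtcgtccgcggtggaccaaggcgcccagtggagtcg
Ccl25 downstream start: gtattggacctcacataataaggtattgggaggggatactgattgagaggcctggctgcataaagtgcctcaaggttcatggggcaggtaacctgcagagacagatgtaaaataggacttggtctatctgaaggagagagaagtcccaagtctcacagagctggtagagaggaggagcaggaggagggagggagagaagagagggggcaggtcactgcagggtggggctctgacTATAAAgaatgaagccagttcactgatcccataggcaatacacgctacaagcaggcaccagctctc
The upstream start lies beside Elavl1, which is transcribed from the opposite strand and overlaps the annotated Ccl25 gene by 204 bases. Elavl1, an RNA-binding protein gene, averaged 87.2 CPM over the libraries. The kit marks strand, but the strand setting of the counting was not given in the sources used here, so how overlapping reads were assigned was not tested. The Cxcl2 window held a pair of overlapping kB matches.

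Of the 10 chemokines, 7 were measured well enough to enter the fit over all genes, and 3 were close to 0. Per kilobase of annotated exon, the control level was highest for Ccl9 (463.1 ± 48.6 CPM per kilobase) and Ccl2 (392.4 ± 209.0), followed by Ccl6 (208.3 ± 133.7; SD, n = 3 each). Ccl9 and Ccl6 are macrophage chemokines that bind Ccr1. Control samples of Ccl9 and Ccl2 overlapped on this scale, as did those of Ccl2 and Ccl6. Ccl3 (50.9 ± 3.08), Ccl4 (22.02 ± 7.06) and Cxcl2 (19.7 ± 3.56) formed a middle range, in which Ccl3 stood above the others in every control sample and Ccl4 and Cxcl2 overlapped. Ccl25 was lowest of the 7, at 2.76 ± 0.429 CPM per kilobase, and its 7445 exon bases include those of both starts. By average CPM, Ccl9 ranked 59 among 16666 genes tested, Ccl2 ranked 200 and Ccl6 ranked 228.

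**Figure D1:**
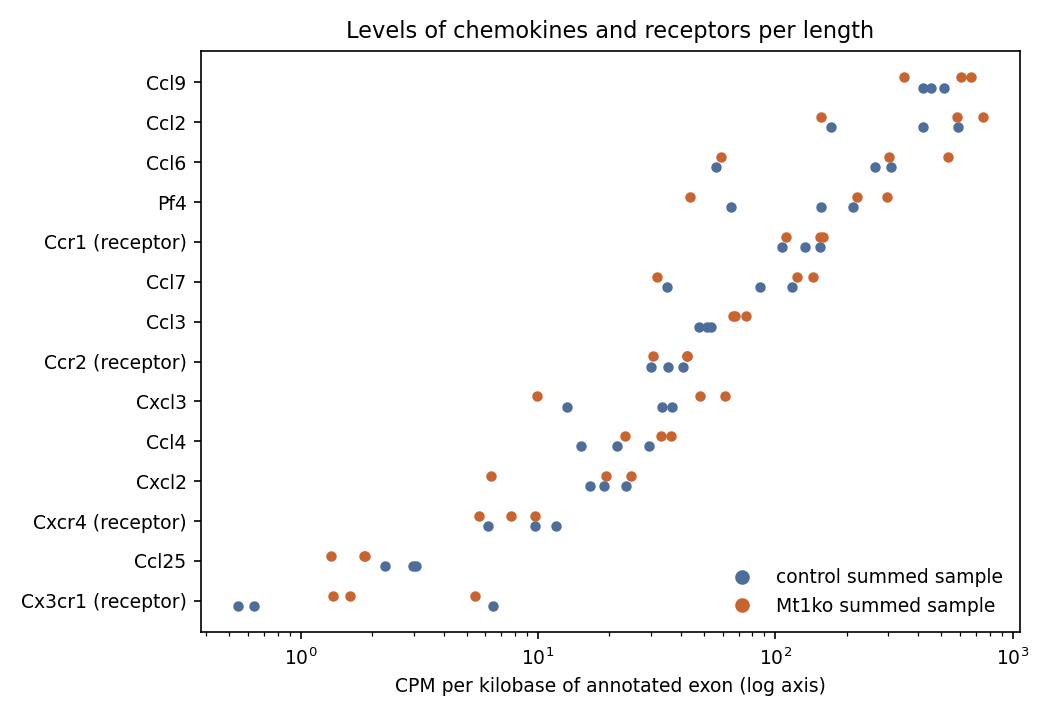
Levels per length (horizontal log axis, TMM-scaled CPM per kilobase of annotated exon) of the 7 tested chemokines, of 3 other ligands and of 4 receptors. Each point is 1 of the 6 summed samples; Ccl9 and Ccl2 lead, Ccl25 is the lowest ligand, and the lowest points of Ccl2, Ccl6 and Ccl7 belong to 1 sample of each group.

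The other 3 genes had almost no counts. Cxcl16, a membrane-bound ligand of Cxcr6 made by macrophages, had 23 counts in 1 control library, library 7, and was listed at 0 in the others. Since monocyte and macrophage markers were abundant, these zeros may be a failure of the counting, which was not tested. Ccl17, a ligand of Ccr4 made by dendritic cells, had 9 counts in 1 control library, library 9. Ccl5, a product of T cells, NK cells and platelets, had 72 counts in 4 of 17 libraries, with at most 1.32 CPM in any (Mt1ko library 5). A count of 0 allows up to 3 counts, or 0.0776 to 0.111 CPM per library, and covers counting error only. Dendritic cell markers were also scarce: 0 of 8 averaged 10 CPM in control, and Cd209a and Clec9a were at 0 in all 6 samples. Cxcr6, the receptor of Cxcl16, was 0.0236 ± 0.0260 CPM in control against 0.0477 ± 0.0652 CPM in Mt1ko (SD, n = 3 each). No difference between the groups was detectable in these 3 ligands from so few counts.

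The CC chemokines Ccl3 and Ccl4 are neighbours released together by activated macrophages, and Ccl3 binds Ccr1. Ccl3 (ENSMUSG00000000982; chromosome 11, 83647844 to 83649355, minus strand, protein-coding) was 41.2, 36.5 and 39.3 CPM in control samples 1-3, 7-9 and 14-15. In Mt1ko samples 4-6, 10-12 and 16-18 it was 57.6, 51.7 and 51.0 CPM. All 3 Mt1ko samples stood above all 3 control samples. The means were 39.0 ± 2.36 and 53.4 ± 3.62 CPM (SD, n = 3 each), a log2 fold change of 0.45 (SE 0.13, 95% interval 0.15 to 0.76). Single libraries, as plain shares of the total without TMM scaling, did overlap between the groups. The 8 control libraries ran from 31.2 through a median of 40.5 to 50.2 CPM. The 9 Mt1ko libraries ran from 32.1 through 55.4 to 61.2 CPM. The lowest Mt1ko value was in library 11 and the highest control value in library 7. In sample 10-12, whose TMM factor of 0.85 raised its CPM, libraries 10, 11 and 12 held 57.7, 32.1 and 43.6 CPM as plain shares. Among libraries with the first of 3 second index sequences, Ccl3 averaged 41.9 CPM over 5 control libraries against 57.5 CPM over 3 of Mt1ko. Among those with the second it averaged 37.9 CPM over 3 control libraries against 47.2 CPM over 4 of Mt1ko. The third was carried by 2 Mt1ko libraries alone, and all Mt1ko libraries with the first belong to sample 4-6. With library 6 left out, sample 4-6 held 55.7 CPM of Ccl3, as a share of all counts, and the log2 fold change was 0.44. Libraries of 1 sample had an SD of 0.27 for Ccl3 on the log2(CPM + 1) scale, against 0.09 between samples of a group. The former is of single libraries without TMM scaling and the latter of TMM-scaled sums of libraries, so they are unlike measures.

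Ccl4 (ENSMUSG00000018930; chromosome 11, 83662584 to 83664683, plus strand) was 14.2, 10.0 and 19.3 CPM in control, against 21.7, 15.3 and 24.1 CPM in Mt1ko, in the same order of samples. The groups overlapped, since control sample 14-15 stood above Mt1ko sample 10-12. Its log2 fold change was 0.49 (SE 0.30, 95% interval -0.20 to 1.18), close in size to that of Ccl3 with over 2 times the standard error. Ccl3 outnumbered Ccl4 in every sample, and the ratio of their counts ran from 2.03 in control 14-15 to 3.64 in control 7-9. The neighbours therefore did not keep a fixed ratio, within control alone.

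Ccl25, a ligand of Ccr9 best known from thymic and gut epithelium, was the other gene selected on its p-value. Ccl25 (ENSMUSG00000023235; chromosome 8, 4325210 to 4360020, plus strand, protein-coding) was 16.9, 22.1 and 22.7 CPM in control, against 13.8, 9.94 and 13.8 CPM in Mt1ko. All 3 Mt1ko samples stood below all 3 control samples. The means were 20.6 ± 3.20 and 12.5 ± 2.24 CPM (SD, n = 3 each), a log2 fold change of -0.71 (SE 0.23, 95% interval -1.25 to -0.17). Single libraries overlapped again, from 12.7 through a median of 21.0 to 29.2 CPM in control and from 3.13 through 11.6 to 19.0 CPM in Mt1ko. The lowest value, in Mt1ko library 10, rested on 94 counts. Libraries of 1 sample varied more in Ccl25 than in any of the other 6 tested chemokines, with an SD of 0.50 on the log2(CPM + 1) scale. Between samples of a group the SD was 0.24, which is of TMM-scaled sums and so, as for Ccl3, an unlike measure. Within the first index sequence Ccl25 averaged 19.7 CPM in control against 13.6 CPM in Mt1ko, and within the second 24.1 against 9.20 CPM. Without Mt1ko sample 10-12 the log2 fold change was -0.57, and with library 6 left out it was -0.78, with 12.1 CPM of all counts in sample 4-6.

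Of 8 markers of thymic and gut epithelium, Epcam, Krt5, Krt8, Krt18, Foxn1 and Lgr5 were at 0 in all 6 samples. Cdh1, which encodes E-cadherin, made up nearly all of the list's summed level, which ran from 87.3 to 108.2 CPM over control samples and from 73.1 to 106.2 CPM over those of Mt1ko. The receptor Ccr9 was scarce, at 0.339 ± 0.290 CPM in control against 0.0723 ± 0.116 CPM in Mt1ko (SD, n = 3 each), and was not called (log2 fold change -2.20, SE 1.88; edgeR quasi-likelihood adjusted p = 1.00). Ackr4, a scavenging receptor of Ccl25, had 0 counts in all 17 libraries.

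**Figure D2:**
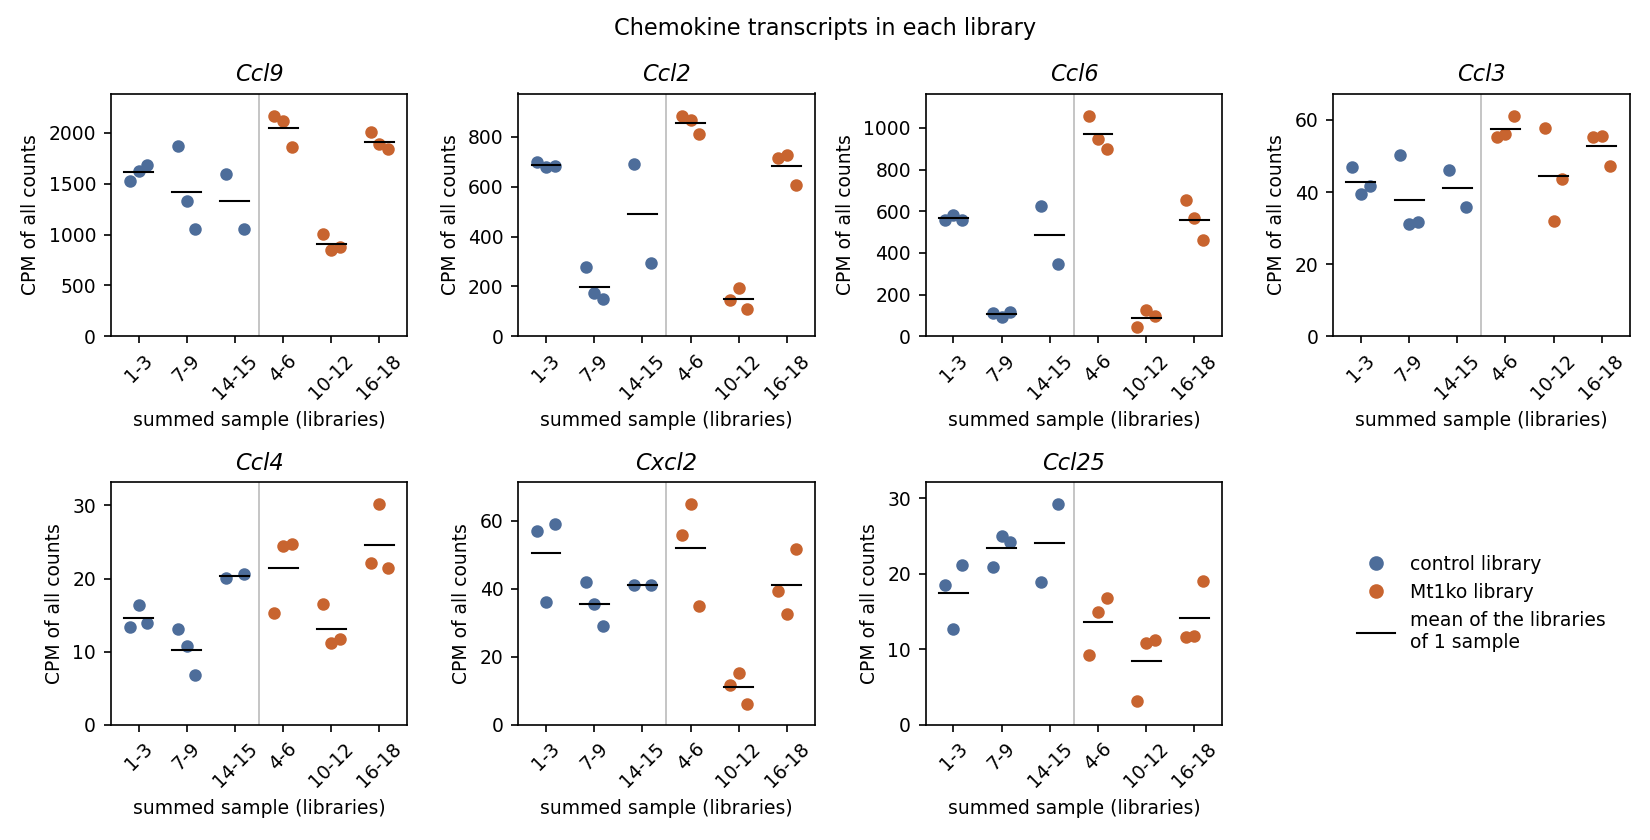
CPM of all counts in each of 17 libraries (points) for the 7 tested chemokines, by summed sample, with the mean of the libraries of 1 sample (line); each vertical axis starts at 0. Ccl2 and Ccl6 are low in control 7-9 and Mt1ko 10-12, while Ccl3 and Ccl25 show overlapping libraries and sample means that do not overlap between the groups.

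The largest differences among the chemokines lay between samples of the same group. Ccl2 and Ccl6 were low in 1 sample of each group, and Cxcl2 in 1 Mt1ko sample. Ccl2 (ENSMUSG00000035385; chromosome 11, 82035571 to 82037453, plus strand) was 667.6, 194.8 and 477.2 CPM in control samples 1-3, 7-9 and 14-15, and 850.7, 177.6 and 663.3 CPM in Mt1ko samples 4-6, 10-12 and 16-18. Samples 7-9 and 10-12 were the lowest of their groups and stood close to each other. The log2 fold change between the groups was 0.34 (SE 0.59, 95% interval -1.04 to 1.72), and it was -0.09 without Mt1ko sample 4-6 and -0.02 without control sample 7-9.

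Ccl6 (ENSMUSG00000018927; chromosome 11, 83587882 to 83593087, minus strand) had the same order of samples within each group and a wider range. It was 550.4, 100.6 and 470.6 CPM in control, against 962.8, 106.2 and 539.2 CPM in Mt1ko. The highest sample held 9.57 times the lowest. Mt1ko over control, its log2 fold change was 0.52 (SE 0.80, 95% interval -1.33 to 2.37), and it was -0.21 without Mt1ko sample 4-6. Within sample 14-15 the 2 libraries also differed, at 627.0 and 347.6 CPM of Ccl6 and 689.5 and 293.9 CPM of Ccl2.

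Ccl9 (ENSMUSG00000019122; chromosome 11, 83572919 to 83578636, minus strand), the nearest neighbour of Ccl6, was 1570, 1384 and 1277 CPM in control, against 2035, 1065 and 1854 CPM in Mt1ko. Its highest sample held 1.91 times its lowest. Ccl9 counts were 2.11 to 3.44 times those of Ccl6 in 4 samples, and 13.7 and 10.0 times in control 7-9 and Mt1ko 10-12. The log2 fold change of Ccl9 was 0.23 (SE 0.24, 95% interval -0.34 to 0.80), and it was 0.05 without Mt1ko sample 4-6. Ccl9 made up 54.0% to 58.2% of the counts of the 10 chemokines in 3 samples, 51.0% in Mt1ko 4-6, and 77.6% and 74.0% in control 7-9 and Mt1ko 10-12. Since the 2 genes are paralogs, reads they share could be split between them; the treatment of such reads was not given in the sources used here.

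Ccl7, the neighbour of Ccl2 and another ligand of Ccr2, lies outside the 10 genes but tracked Ccl2 closely. The ratio of Ccl2 to Ccl7 counts was 7.06, 6.98 and 6.94 in the control samples and 7.38, 6.97 and 6.68 in the Mt1ko samples. The pair thus kept nearly 1 ratio while Ccl2 itself ranged 4.79-fold over the samples. Beside it, the ratio of Ccl2 to Ccl6 ran from 0.884 to 1.94.

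Cxcl2 (ENSMUSG00000058427; chromosome 5, 90903871 to 90905938, plus strand), a CXC chemokine of macrophages that recruits neutrophils, was 48.7, 34.2 and 39.1 CPM in control, against 51.1, 13.1 and 40.0 CPM in Mt1ko. Only Mt1ko sample 10-12 was far below the rest of the 6, at 6.04 to 15.2 CPM in its libraries. Between the groups, Cxcl2 had a log2 fold change of -0.23 (SE 0.44, 95% interval -1.24 to 0.78), and it was 0.17 without that sample. With library 6 left out it was -0.10, with 60.5 CPM of all counts in sample 4-6. Cxcl3, a related ligand of Cxcr2, held 1.35 times the counts of Cxcl2 in control 7-9 and 5.35 times in Mt1ko 16-18.

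The 2 samples that were low in Ccl2 and Ccl6 also differed from the others in other measures, whose part in these levels was not tested. The 10 monocyte and macrophage markers summed to 10156 CPM (control 7-9) and 8160 CPM (Mt1ko 10-12), against 6970 to 8620 CPM in the other 4. Lyz2, a lysozyme gene, carried much of that sum, at 5644 and 4589 CPM in the same samples and 2238 to 3111 CPM in the others. The other 9 markers, counted apart after the data were seen, summed to 4512 and 3572 CPM there and to 4416 to 5509 CPM in the other 4. Ly6c2, a marker of inflammatory monocytes, was lower in both (245.9 and 223.8 CPM, against 395.5 to 503.1 CPM), as were Itgam and Fcgr1. The 10 mast cell and basophil markers summed to 749.3 and 4879 CPM in these samples, against 147.7 to 618.3 CPM in the other 4; Prss34 was at 0 in all 6. The 10 neutrophil markers summed to 220.3 and 189.1 CPM there, against 275.2 to 358.2 CPM in the other 4. That list did not fall as a whole, and 5 of its markers were under 1 CPM in control. Elane was lower (6.71 and 1.37 CPM, against 27.0 to 80.0 CPM), as was Prtn3. Mmp8, the largest part of the sum, overlapped (188.3 and 170.6 CPM, against 164.4 to 216.5 CPM), as did S100a8. Mpo was highest in control 7-9, at 5.84 CPM, and at 0 in Mt1ko 10-12. Among receptors, Cx3cr1, the fractalkine receptor of patrolling monocytes and macrophages, was 29.2 and 24.4 CPM there and 2.46 to 7.28 CPM in the others.

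**Figure D3:**
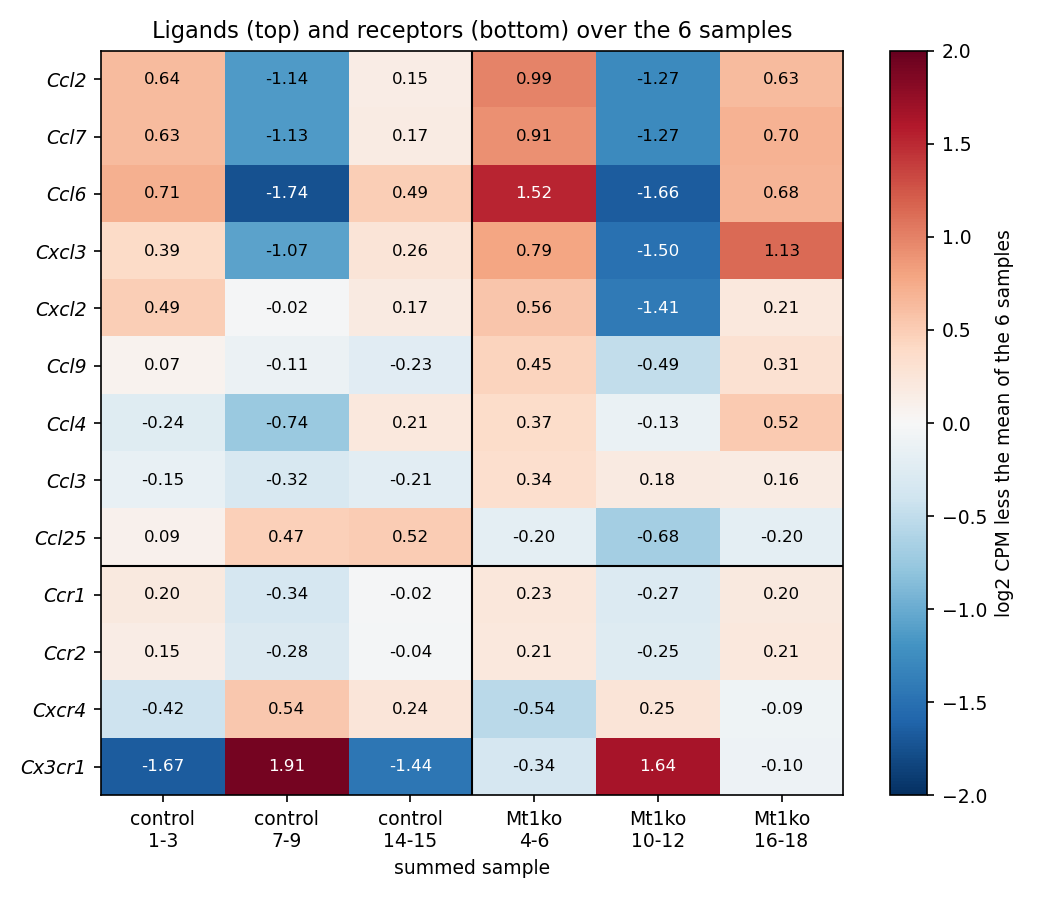
Log2 CPM of 9 ligands (top) and 4 receptors (bottom) in the 6 summed samples, each less its mean over the 6 samples, with colour and printed value showing the same number. Ccl2, Ccl7, Ccl6 and Cxcl3 are at -1.07 or below in control 7-9 and Mt1ko 10-12, and Cx3cr1 is highest there.

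The receptors that bind these ligands were read in the same samples. Ccr1, which binds Ccl3, Ccl5, Ccl6 and Ccl9, was 372.6 ± 69.1 CPM in control against 400.7 ± 73.8 CPM in Mt1ko (log2 fold change 0.10, SE 0.20). Ccr2, which binds Ccl2 and Ccl7, was 239.0 ± 36.1 and 259.6 ± 45.6 CPM (0.12, SE 0.18; SD, n = 3 each). Both receptors were thus abundant in both groups. The receptors of the scarcer axes were low: Cxcr2 was 4.13 ± 3.45 and 2.98 ± 2.59 CPM, Ccr4 was 0.623 ± 0.602 and 0.584 ± 0.572 CPM, and Ccr3 was 1.27 ± 0.930 and 2.96 ± 2.58 CPM in control and Mt1ko. Ackr1, which binds many inflammatory chemokines, was 4.31 CPM in Mt1ko 10-12 and at most 1.59 CPM in the other samples. Ackr2, a scavenger of CC chemokines, had 20 counts in 2 libraries, and Ccr8 had none.

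Over all genes, the edgeR quasi-likelihood test called 0 of 16666 genes between Mt1ko and control at an adjusted p under 0.05, a share of 0%, and none of the 7 tested chemokines. At an unadjusted p under 0.05 the same test gave 171 genes, among which were Ccl3 and Ccl25, as their selection implies. DESeq2 called 1 gene, Mt1, and limma-voom called 0. Of the 7 chemokines, 5 had higher and 2 lower values in Mt1ko, with a median log2 fold change of 0.34. Over all genes tested, 8051 had higher and 8615 lower values, with a median of -0.01. The chemokines were chosen with earlier results of these data known, so nothing follows from this difference. The groups did not overlap in 2 of the 7, Ccl3 and Ccl25, and in 7.1% of all genes tested; since both were selected for this contrast, nothing follows from that count. The standard deviation between samples of a group on the log2(CPM + 1) scale was 0.09 for Ccl3, 0.24 for Ccl25, 0.37 for Ccl9, 0.39 for Ccl4, 0.73 for Cxcl2, 1.07 for Ccl2 and 1.50 for Ccl6. Its median was 0.22 over the 6939 tested genes whose log2 CPM averaged 4 or above, a range that holds all 7. The small spread of Ccl3 is part of what gives a small p-value, on which it was selected, so nothing is read from it.

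The other genes of the chemokine system gave no call. Of 31 other ligands, 9 were tested, of which 5 were higher and 4 lower in Mt1ko, with a median log2 fold change of 0.33 and 0 called. At least 10 CPM in control was reached by Pf4, a platelet chemokine, by Cxcl3 and by Ccl7. Pf4 was lowest in control 7-9 and Mt1ko 10-12 (47.1 and 31.5 CPM), where the 6 megakaryocyte markers summed to 58.9 and 295.0 CPM. In the remaining samples Pf4 was 112.8 to 213.9 CPM and those markers summed to 21.2 to 43.3 CPM. Which cells made Pf4 was not tested. Pf4 was 104.2 ± 53.4 CPM in control against 135.1 ± 93.7 CPM in Mt1ko, Cxcl3 was 96.8 ± 44.1 and 139.1 ± 93.3 CPM, and Ccl7 was 63.7 ± 33.6 and 80.0 ± 47.9 CPM (SD, n = 3 each). Their log2 fold changes were 0.37 (SE 0.66), 0.52 (SE 0.62) and 0.33 (SE 0.59; edgeR adjusted p = 1.00 for each). Of 24 receptors, 14 were tested, of which 7 were higher and 7 lower, with a median of 0.04 and 0 called; at an unadjusted p under 0.05 there were likewise 0 in both lists, by the same test. Cxcr4, the receptor that holds cells in marrow, was 16.7 ± 5.28 and 13.9 ± 3.71 CPM (log2 fold change -0.26, SE 0.32; edgeR adjusted p = 1.00).

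**Figure D4:**
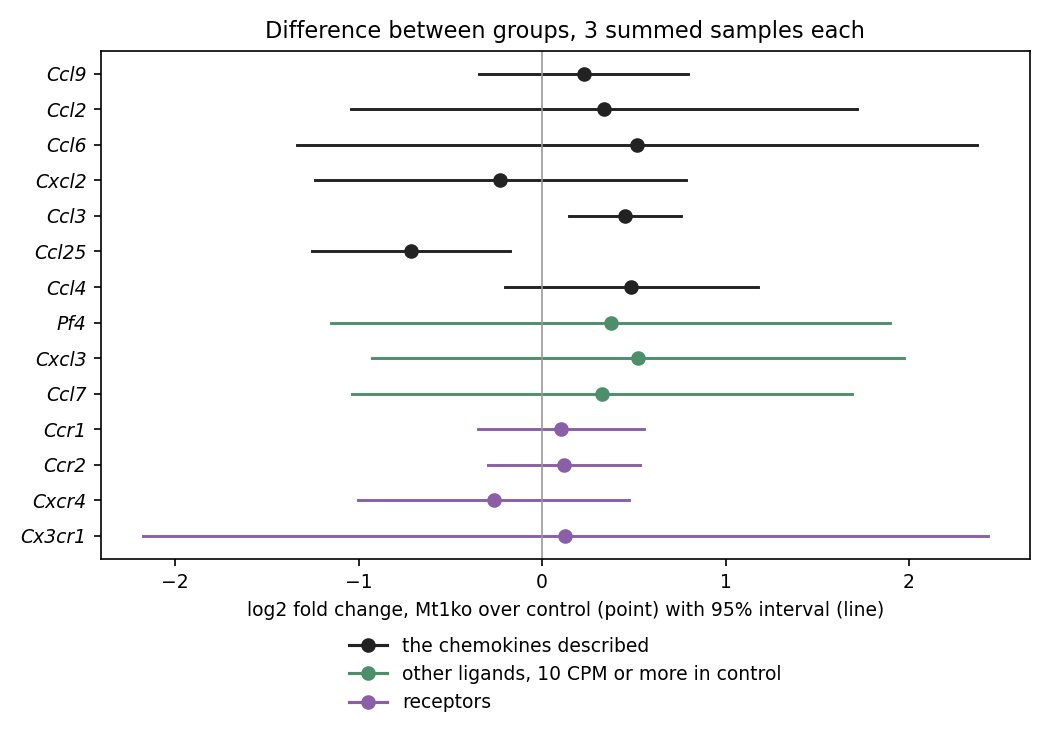
Log2 fold change of Mt1ko over control (horizontal axis; point) with its 95% interval (line) from 3 summed samples a group, for the 7 tested chemokines, 3 other ligands and 4 receptors. Ccl6 and Cx3cr1 have the widest intervals; Ccl3 (0.45) and Ccl25 (-0.71) were selected on this contrast, so their intervals are no test.

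The genes whose levels over the 17 libraries were most like those of Ccl3 and of Ccl25 were sought among 10337 genes. The measure was Pearson's r of log2 CPM, here TMM-scaled for single libraries. This search is a description, because libraries of 1 sample share their source and all share differences of composition. For Ccl3 they were Pfdn2, a subunit of the prefoldin chaperone (r = 0.84), Kpna1, an importin (0.81), Mcmbp, which binds the MCM helicase (0.80), Stip1, a co-chaperone (0.80), and Gltp, a glycolipid transfer protein (0.79). Pfdn2 was 14.7 ± 0.458 CPM in control against 20.2 ± 2.49 CPM in Mt1ko (SD, n = 3 each). Without libraries 9 and 10, the farthest from the Ccl3 median on that scale, the 5 values of r were 0.71 to 0.80. No other chemokine was among them.

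For Ccl25 they were Csnk1e, a casein kinase (r = 0.92), Mt2, the paralog of the targeted Mt1 (0.90), Ino80d, of a chromatin remodelling complex (0.88), Mapk9, which encodes the kinase JNK2 (0.86), and Twnk, the mitochondrial DNA helicase (0.86). Mt2 was 93.1 ± 12.5 CPM in control against 69.2 ± 14.1 CPM in Mt1ko (SD, n = 3 each). Libraries 4 and 10 were the farthest from the Ccl25 median on the TMM-scaled values. Without them r was 0.66 for Mt2, 0.73 for Csnk1e, 0.57 for Mapk9, 0.75 for Ino80d and 0.81 for Twnk. Each r was lower than over all 17 libraries. Those 2 libraries were left out for their extreme Ccl25 values, which by itself tends to lower r, so nothing is read from the drop.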

How the data were processed

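Total RNA was isolated with the RNeasy Micro kit and made into libraries with a SMARTer stranded Pico kit, per the labels' protocols. Trimmomatic 0.35 and RSEM 1.3.3 were used with GRCm38 (mm10), per the submitters' processing notes; which aligner and strand setting were used was not given in the sources used here. Unnormalized whole counts per gene were deposited by the authors for 17 libraries and for 6 sums, each of which equalled the sum of its libraries in every gene. Titles gave the groups. The 6 sums were tested with edgeR 4.0.16 (R 4.3.3): filterByExpr, TMM, the quasi-likelihood F test on group alone, and Benjamini-Hochberg adjustment over all genes tested, called at an adjusted p under 0.05. Standard errors are the log2 fold change over the root of F. CPM carry the TMM scaling for summed samples, but for single libraries are plain shares of the total. Only the search for genes like Ccl3 and Ccl25 used TMM-scaled log2 CPM of single libraries. Exon lengths and coordinates came from GENCODE vM21, to which 55141 of 56305 identifiers matched; where a symbol had several identifiers, the one with most counts was used. The test was checked on simulated counts. The members and lists were chosen with earlier results of these data known. The rule named all 10 members, other ligands and receptors with at least 10 CPM in control, receptors known to bind the members, Mt1, and the 5 genes most like Ccl3 and Ccl25 (average log2 CPM of at least 1, prior count 1, no predicted loci); 1 receptor it named is not reported here. Elavl1 and the marker genes named were chosen after their values were seen. Alternatives tried were scaling by RLE or upper quartile, filters (none, or 1 CPM throughout a group), DESeq2 1.42.0, limma-voom (limma 3.58.1), 17 libraries singly with and without the index as covariate, library 6 left out, each summed sample left out, and a threshold of 0.10. In the leave-one-out fits, 2 samples stood against 3.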

Additional observations from a re-analysis of the deposited data

Results flagged for a closer look

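In 4 of the 18 sets of library values tested, 1 library lay far from the others of its group and gene. All 4 fell on the scarce genes, where most libraries were at 0. The usual rate of about 1 flag in 20 does not hold for such sets, and libraries of 1 sample are not independent. Where only 1 library held counts, the flag was fixed in advance, so nothing follows from the number of flags. Cxcl16 was 0.628 CPM in control library 7, with the other control libraries at 0. Ccl17 was 0.331 CPM in control library 9, likewise alone. Ccl5 was 1.32 CPM in Mt1ko library 5, where the next Mt1ko library held 0.340 CPM, and 0.0893 CPM (3 counts) in control library 2, with the other control libraries at 0.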

How the results depend on the processing

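The count of 0 genes called over all genes became 1 with DESeq2, 1 with all 17 libraries as separate samples and 1 when library 6 was dropped, each time Mt1; it stayed at 0 under the other alternatives. No ligand or receptor of the 2 lists was called under any of them, and none of the 7 tested chemokines was either. Ccl3 and Ccl25 were selected on this contrast and their samples did not overlap between the groups, so a kept sign is no support for them. The log2 fold change kept its sign in every alternative for 4 of the 7: Ccl3 (0.39 to 0.52), Ccl4 (0.28 to 0.75), Ccl9 (0.05 to 0.47) and Ccl25 (-0.84 to -0.57). It changed sign for Ccl2 (-0.09 without Mt1ko sample 4-6, -0.02 without control sample 7-9, 0.76 without Mt1ko sample 10-12), Ccl6 (-0.21 without Mt1ko sample 4-6, 1.00 without Mt1ko sample 10-12) and Cxcl2 (0.17 without Mt1ko sample 10-12); fewer samples entered these fits. Of 31 genes followed, 19 kept their sign in every alternative that gave a value. No paired analysis was possible because the labels number every library separately and no number is shared between the groups. For Ccl5, Ccl17 and Cxcl16, with almost no counts, no difference was detectable; why Cxcl16 is at 0 was not tested.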
